A study of Homo sapiens with 8 samples.

Results

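The 42 genes described here belong to the ATF4 stress response, to the endoplasmic reticulum (ER) stress response and to the cytosolic aminoacyl-tRNA synthetases. They were chosen by name, with earlier results of these data known. Of them 18 are ATF4, its partners and genes of amino acid stress, 12 are ER stress genes and 12 are synthetases. All 42 were found among the 60291 genes of the count files, and all 42 were among the 17811 genes with 10 or more reads in any of the 7 siRNA libraries, which were tested. The cells were A549, a human lung adenocarcinoma line that carries a loss of function of KEAP1, the protein that normally marks NRF2 for degradation, a loss that controls and treated cells share. NRF2, the product of NFE2L2, is the main transcription factor of the antioxidant response. Per transfection 250000 cells received 5 nmol of siRNA and were harvested after 48 h, and strand-specific total RNA was sequenced after removal of ribosomal RNA. There were 3 NFE2L2 siRNA libraries, each from another duplex transfected once, 4 control siRNA libraries, from 2 non-targeting duplexes transfected 2 times each, and 1 mock library from cells given the transfection reagent alone. All transfections were made in this 1 line, so p-values measure the spread between these transfections, which for NFE2L2 siRNA includes that between duplexes. Libraries of the same control duplex share its sequence but were fitted as separate replicates.

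ATF4 mRNA is translated more when the initiation factor eIF2 is phosphorylated by one of its stress kinases, as happens when amino acids run short or when unfolded proteins build up in the ER. The ATF4 protein then pairs with C/EBP proteins on a composite element, the C/EBP-ATF response element (CARE), in genes of amino acid synthesis and uptake and in the synthetase genes. The ER also has ATF4-independent branches, in which ATF6 and spliced XBP1 raise chaperones and degradation factors through the ER stress element (ERSE). NRF2 acts on the antioxidant response element (ARE), and several genes of cystine uptake and glutathione synthesis are known to answer to both NRF2 and ATF4.

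The depth on genes ran from 35525141 to 41645410 reads per library. Levels are given as CPM, counts per 1000000 gene counts after TMM scaling over the 8 libraries, in the order NFE2L2 duplex 1, 2 and 3, then control duplex 1 (first and second transfection) and control duplex 2 (first and second transfection). The target itself, NFE2L2, had 32.9, 52.0 and 29.7 CPM with its siRNA and 107, 110, 113 and 117 CPM in the controls, a log2 fold change of −1.55 (SE 0.178, edgeR adjusted p = 0.000994, or 0.0233 and 0.0255 against control duplex 1 or 2 alone). Of 4 epithelial markers, the keratins KRT8 and KRT18 had between 2830 and 6280 CPM in every library with overlapping groups. KRT19 and CDH1 lay wholly above the controls, with log2 fold changes of 0.88 and 0.74 (adjusted p = 0.02 and 0.0455), and CDH1 was also lower by 0.67 with control duplex 2 than with duplex 1 (adjusted p = 0.00601). Among leukocyte and endothelial markers PTPRC, CD3E and VWF had at most 5 reads. CD14 had 7.66 to 11 CPM with NFE2L2 siRNA and 4.32 to 6.71 CPM with control siRNA (adjusted p = 0.0287), and CDH5, under 1 CPM in every library, rose by 1.99 on the log2 scale (adjusted p = 0.0082), a call that was lost against either control duplex alone (0.0698 and 0.103) and in every fit with 1 library left out but that without NFE2L2 duplex 1. The summed level of 3 fibroblast markers was 11.5 to 17.1 CPM with NFE2L2 siRNA and 5.1 to 6.39 CPM with control siRNA. All 3 had positive changes and 1 of them, COL1A1, passed the test, its mean level being 182% higher (adjusted p = 0.000493). None of the 3 was at 0, and the part of these marker differences in the results below was not tested. In total RNA from many cells, fewer cells that express a gene and less RNA per cell cannot be told apart.

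With NFE2L2 siRNA the 42 genes moved little. A single gene, CEBPB, passed the threshold of an adjusted p under 0.01 and was decreased. Across all 17811 genes tested 491 passed, which is 2.76%, with 1.36% decreased and 1.39% increased. Log2 fold changes of the 42 genes ran from −0.59 for STC2 to 0.61 for PDIA4, with a median of −0.05 beside 0.01 for all genes, and 23 of them were negative against 48.7% of all genes. The 95% interval of the change lay within 2-fold in either direction for 41 of the 42 genes, all but PDIA4, and for 74.8% of all genes tested. The median SE was 0.122 over the 42 genes and 0.158 over all genes, so these shares compare genes of unlike precision. At an adjusted p under 0.05, which 8.17% of all genes reached, STC2 joined CEBPB. An unadjusted p under 0.05 in the edgeR test was reached by 13 of the 42 genes, beside 25.0% of all genes. These were 8 of the 18 ATF4 and amino acid stress genes, 3 of the 12 synthetases and 2 of the 12 ER stress genes. Wherever an adjusted p is given without a tool, it comes from the edgeR quasi-likelihood test. It was adjusted by Benjamini-Hochberg over the genes of its own fit, which were 17811 in the main fit. A threshold that was missed does not show that the levels were equal.

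**Figure D1:**
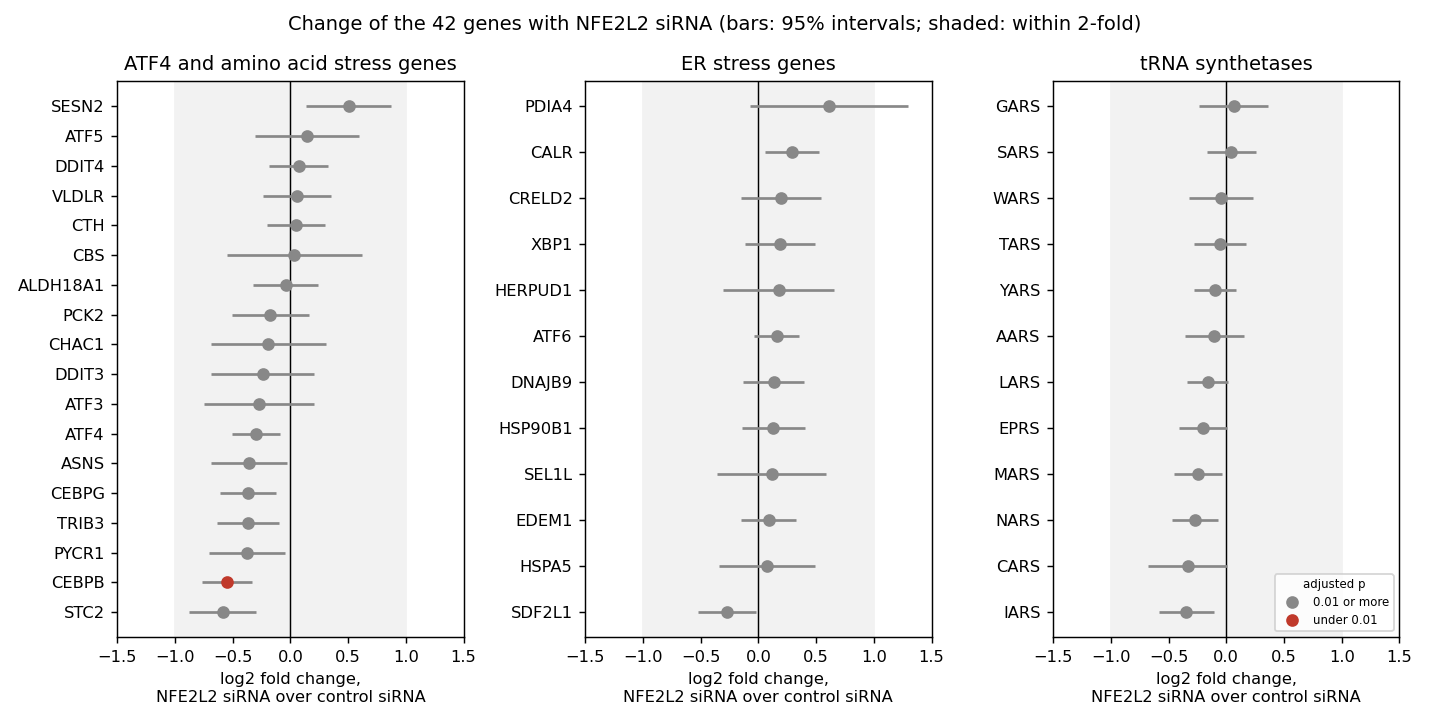
Log2 fold change of each of the 42 genes between 3 NFE2L2 siRNA and 4 control siRNA libraries (x axis), with genes on the y axis in their 3 groups, 95% intervals as bars and changes within 2-fold shaded. CEBPB, in red, is the only gene with an adjusted p under 0.01, and the interval of PDIA4 alone leaves the shaded band.

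The 3 groups did not lie on the same side. The median log2 fold change was −0.22 over the ATF4 group, where 12 of 18 values were negative, −0.13 over the synthetases, where 10 of 12 were negative, and 0.15 over the ER stress genes, where 11 of 12 were positive. All 3 NFE2L2 siRNA values were below the 4 control values for 6 ATF4 group genes, 5 synthetases and 1 ER stress gene, and above them for 1 ER stress gene. Of all genes tested, 11.4% lay wholly below and 11.9% wholly above. The summed level of the ATF4 group was 1301 ± 27.4 CPM (SD, n = 3) with NFE2L2 siRNA and 1479 ± 54.5 CPM (SD, n = 4) with control siRNA. The synthetases summed to 2313 ± 65.0 and 2612 ± 102 CPM, and neither pair of ranges overlapped. The ER stress genes summed to 4780 ± 624 and 4164 ± 544 CPM, with ranges that overlapped. These are descriptions of chosen lists and carry no test.

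**Figure D2:**
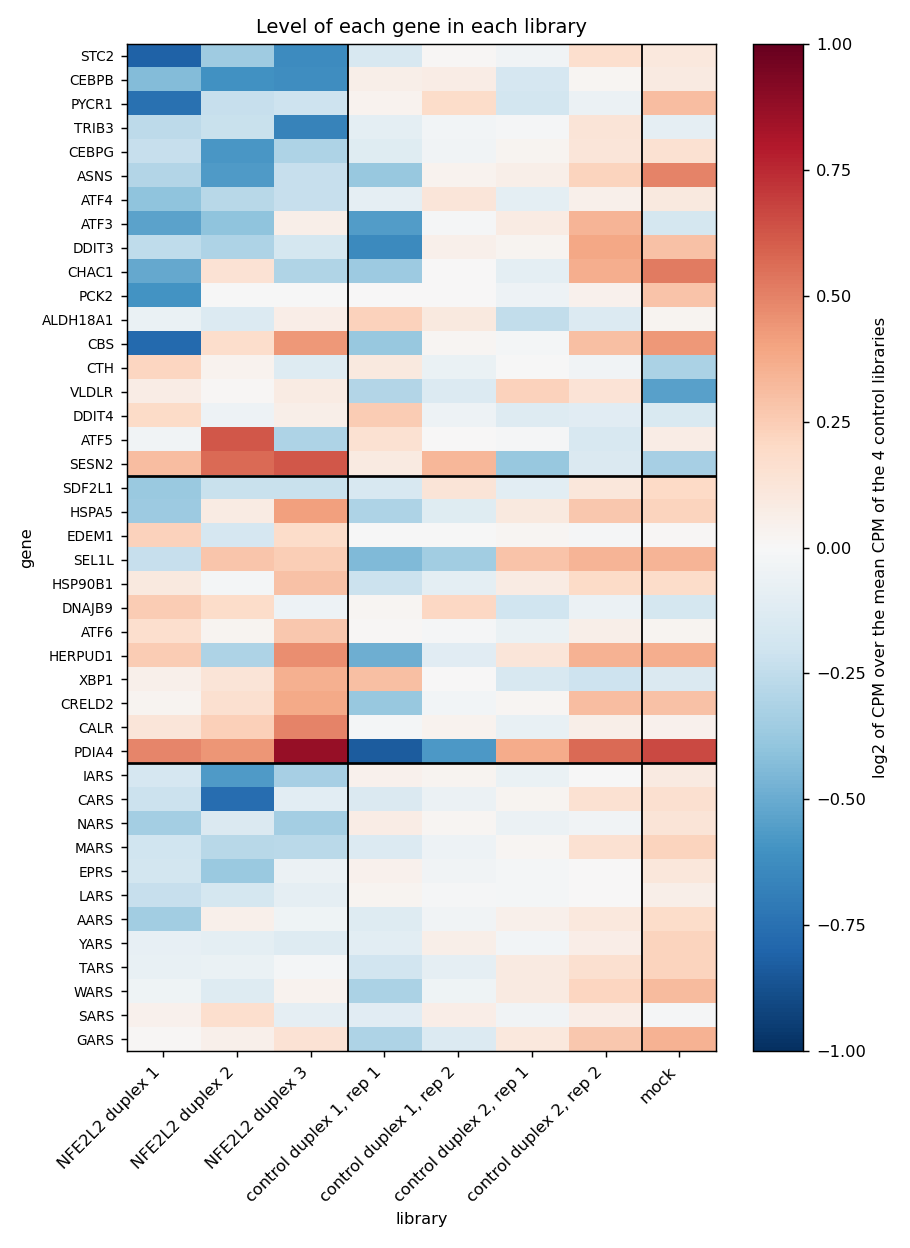
Log2 ratio of the CPM of each gene (y axis) in each of the 8 libraries (x axis) to its mean over the 4 control libraries, as colour, with lines between the 3 gene groups. CEBPB and STC2 are blue in all 3 NFE2L2 siRNA columns, PDIA4 is blue in both columns of control duplex 1 and red in the other 6, and most synthetases are red in the mock column.

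Among the transcription factors, CEBPB, a C/EBP protein that pairs with ATF4 and also drives acute-phase and differentiation genes, had 103, 91.4 and 90.2 CPM with NFE2L2 siRNA and 145, 146, 124 and 141 CPM with control siRNA. Every NFE2L2 siRNA library was below every control library, with duplex 1 nearest to them. The log2 fold change was −0.55 (SE 0.0963, adjusted p = 0.0087), a level 31.6% lower. The exact permutation test over the 35 divisions of the 7 libraries gave p = 0.0571, two-sided, which is the smallest that 3 against 4 allows. The direction held in each fit with 1 library left out, with log2 fold changes from −0.61 to −0.51, but the adjusted p of CEBPB stayed under 0.01 only without NFE2L2 duplex 1 (0.00661). It was 0.0124 and 0.0333 without NFE2L2 duplex 2 and 3, and without the control libraries in the order above it was 0.0284, 0.0402, 0.0135 and 0.0338. Against control duplex 1 alone it was 0.0446, against control duplex 2 alone 0.126 and with both libraries of a control duplex summed 0.107. None of the 42 genes passed 0.01 against either duplex alone, in fits where 0.657% and 0.337% of all genes did. DESeq2 gave 2.58e-05 for CEBPB and called 2 of the 42 genes, beside 7.38% of all genes, limma-voom called CEBPB alone, beside 2.61%, and with the mock library added to the controls CEBPB and STC2 passed, beside 4.33%.

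CEBPB (ENSG00000172216.4) is encoded on chromosome 20, plus strand, between 48807367 and 48809205 (GRCh37). A promoter window from 250 bases before a RefSeq start to 49 after it, with that start as position 0, was in the RefSeq table for 39 of the 42 genes, and all 58 windows of these genes matched GRCh37 once. PYCR1, LARS and YARS had none. The letters TGACNNNGC, the core of the ARE, occurred on either strand in a window of 5 of 17 ATF4 group genes with a window, 4 of 12 ER stress genes and 3 of 10 synthetases, beside 16.1% of the 27305 genes that the table covers. The stretch of CEBPB that holds them, at positions −57 to −49 from its downstream start, is shown because CEBPB was the gene that passed the test, with the match in capitals (chr20:48807274-48807353, plus strand):
CEBPB: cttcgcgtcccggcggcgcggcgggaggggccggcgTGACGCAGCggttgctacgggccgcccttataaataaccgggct

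A match of letters is a description and does not show that a factor binds there.

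ATF4 itself (ENSG00000128272.10, chromosome 22 from 39915700 to 39918688) had 188, 205 and 211 CPM with NFE2L2 siRNA and 233, 270, 232 and 257 CPM with control siRNA. The groups did not overlap, and the log2 fold change was −0.30 (95% interval −0.51 to −0.09, adjusted p = 0.0777). CEBPG, the C/EBP partner of ATF4 on many amino acid genes, had 112, 87.7 and 106 CPM against 121, 128, 134 and 143 CPM, again without overlap, with a log2 fold change of −0.37 (adjusted p = 0.0654). ATF4 and CEBPG therefore lay below the controls in every library without passing the test, and with DESeq2 their adjusted p-values were 0.0388 and 0.0274, above 0.01 as well. The other factors spread more. DDIT3, which encodes the stress factor CHOP, had 27.7, 26.7 and 29.3 CPM against 21.2, 34.2, 33.6 and 43.2 CPM. It was the control libraries that differed for DDIT3, with the first transfection of control duplex 1 below all NFE2L2 siRNA libraries. Its log2 fold change was −0.24 (95% interval −0.69 to 0.20). ATF3, a repressor induced by many stresses, changed by −0.27 (SE 0.213) and ATF5, another factor translated under eIF2 phosphorylation, by 0.15 (SE 0.201), both on the log2 scale and with overlapping groups. DDIT3 overlaps the synthetase gene MARS on the opposite strand of chromosome 12, and the reads were counted by strand.

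STC2, a secreted glycoprotein hormone that ATF4 is known to raise, had 22.1, 30.2 and 25.0 CPM with NFE2L2 siRNA and 34.7, 39.1, 37.7 and 43.4 CPM with control siRNA. The groups did not overlap, and the log2 fold change was −0.59 (SE 0.130, adjusted p = 0.0241), a level 33.5% lower. The adjusted p of STC2 was 0.00581 without NFE2L2 duplex 2 and 0.00125 with DESeq2. It was above 0.05 without NFE2L2 duplex 3 (0.0806), without the second transfection of control duplex 1 (0.0788), without either transfection of control duplex 2 (0.0565 and 0.0764) and against control duplex 1 alone (0.157), control duplex 2 alone or both summed (0.183). TRIB3, a pseudokinase that restrains ATF4, had 154, 158 and 116 CPM against 172, 181, 183 and 201 CPM, with a log2 fold change of −0.37 (adjusted p = 0.0892). All values of TRIB3 with NFE2L2 siRNA were below the controls, with duplex 3 lowest. SESN2, a sestrin that senses leucine and holds back mTORC1, went the other way, with 26.6, 31.8 and 33.0 CPM against 22.9, 27.1, 16.5 and 19.5 CPM. Its log2 fold change was 0.51 (95% interval 0.14 to 0.87, adjusted p = 0.091), and 1 NFE2L2 siRNA value lay within the control range. SESN2 also differed between the control duplexes, being lower by 0.47 on the log2 scale with duplex 2 (adjusted p = 0.0218). DDIT4, another brake on mTORC1, had 423, 356 and 385 CPM against 442, 357, 339 and 341 CPM, a log2 fold change of 0.07 with overlapping groups. VLDLR, a lipoprotein receptor, changed by 0.06 (SE 0.132). CHAC1, which breaks down glutathione, was the member with the fewest reads, at most 3.53 CPM in any library, and changed by −0.19 (SE 0.222).

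In amino acid metabolism, ASNS, the asparagine synthetase and a classical ATF4 target, had 31.8, 26.3 and 33.1 CPM with NFE2L2 siRNA and 30.0, 39.9, 40.5 and 45.3 CPM with control siRNA. The lowest control library lay inside the NFE2L2 siRNA range, and the log2 fold change was −0.36 (95% interval −0.69 to −0.03, adjusted p = 0.169). PYCR1, the last enzyme of proline synthesis, had 29.2, 41.7 and 42.3 CPM against 50.2, 55.6, 43.1 and 46.9 CPM. These groups of PYCR1 were separate, but duplex 2 and 3 lay close to the lowest control, and the log2 fold change was −0.37 (adjusted p = 0.148). ALDH18A1, the first enzyme of the same route, changed by −0.04 (95% interval −0.32 to 0.24), with levels in control duplex 2 lower by 0.36 than in duplex 1 on the log2 scale (adjusted p = 0.0112). PCK2, the mitochondrial PEP carboxykinase, had 10.6, 16.0 and 16.0 CPM against 16.1, 16.1, 15.5 and 16.6 CPM, so that only NFE2L2 duplex 1 stood apart from the controls. The transsulfuration enzymes CTH and CBS, which make cysteine from homocysteine, changed by 0.05 (SE 0.111) and 0.03 (SE 0.261). CBS was spread most widely among the NFE2L2 duplexes, with 4.36, 8.42 and 10.1 CPM, against 5.75, 7.58, 7.35 and 9.19 CPM.

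The CARE letters, TGATGNAA on either strand, occurred in a window of 4 of 17 ATF4 group genes, namely ASNS, ATF3, CEBPG and CHAC1, of 1 of 12 ER stress genes, HERPUD1, and of 7 of 10 synthetases, namely AARS, CARS, GARS, IARS, MARS, NARS and TARS. Among all genes with a window, 4.46% hold them. Of the synthetases with the letters, AARS, CARS, GARS and TARS had overlapping groups, and EPRS had separate groups without the letters. No match of one element overlapped a match of another in these windows. The stretches around the match are shown for ASNS, the textbook CARE gene (chr7:97501745-97501824, minus strand), for CEBPG (chr19:33864941-33865020, plus strand), for IARS, the synthetase with the most negative change (chr9:95055949-95056028, minus strand), and for NARS (chr18:55289019-55289098, minus strand) and MARS (chr12:57881811-57881890, plus strand), both without overlap between the groups. Capitals mark the match, and those of IARS and MARS read as the reverse complement, TTGCATCA:
ASNS: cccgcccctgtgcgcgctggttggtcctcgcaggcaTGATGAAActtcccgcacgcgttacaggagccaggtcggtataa
CEBPG: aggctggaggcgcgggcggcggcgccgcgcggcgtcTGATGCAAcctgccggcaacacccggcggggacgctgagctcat
IARS: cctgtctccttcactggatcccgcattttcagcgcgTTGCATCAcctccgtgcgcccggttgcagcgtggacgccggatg
NARS: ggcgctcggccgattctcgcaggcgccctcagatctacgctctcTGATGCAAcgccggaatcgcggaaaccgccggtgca
MARS: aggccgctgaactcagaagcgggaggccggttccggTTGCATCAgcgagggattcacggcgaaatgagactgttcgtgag

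The aminoacyl-tRNA synthetases charge each tRNA with its amino acid, and none of the 12 passed the test. At an unadjusted p under 0.05 there were 3, beside 25.0% of all genes. DESeq2 also called none at 0.01, beside 7.38% of all genes, and gave adjusted p-values of 0.0337 for IARS and 0.0472 for NARS. IARS, which charges isoleucine tRNA, had 511, 387 and 455 CPM with NFE2L2 siRNA and 589, 585, 546 and 572 CPM with control siRNA. NARS, for asparagine, had 221, 254 and 221 CPM against 295, 284, 269 and 273 CPM. MARS, for methionine, had 157, 149 and 150 CPM against 164, 174, 183 and 201 CPM. NFE2L2 siRNA values were below every control value for these 3 genes and for EPRS (glutamate and proline) and LARS (leucine). Their log2 fold changes were −0.34 for IARS (SE 0.105, adjusted p = 0.0747), −0.27 for NARS (SE 0.089, adjusted p = 0.0908), −0.25 for MARS (SE 0.0929, adjusted p = 0.135), −0.20 for EPRS and −0.16 for LARS. The IARS level was thus 21.2% lower and the LARS level 10.4% lower. CARS, for cysteine, had 55.1, 37.7 and 59.5 CPM against 58.0, 61.5, 65.2 and 71.3 CPM, with duplex 2 far below the other two. Its log2 fold change was −0.33 (SE 0.153, adjusted p = 0.208).

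For the remaining 6 synthetases the groups overlapped and the log2 fold change lay between −0.10 and 0.06. These were AARS (alanine) at −0.10, YARS (tyrosine) at −0.10, TARS (threonine) at −0.05, WARS (tryptophan) at −0.04, SARS (serine) at 0.05 and GARS (glycine) at 0.06. The most precise of these intervals, that of YARS, ran from −0.28 to 0.08. GARS, TARS and WARS were higher in control duplex 2 than in control duplex 1, by 0.41, 0.27 and 0.33 on the log2 scale (adjusted p = 0.0115, 0.0336 and 0.0472). For these 3 synthetases the sign of the NFE2L2 siRNA change depended on the control duplex: it was 0.27, 0.08 and 0.12 against duplex 1 alone and −0.13, −0.18 and −0.20 against duplex 2 alone. For IARS, NARS, MARS, EPRS and LARS it was negative against each.

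**Figure D3:**
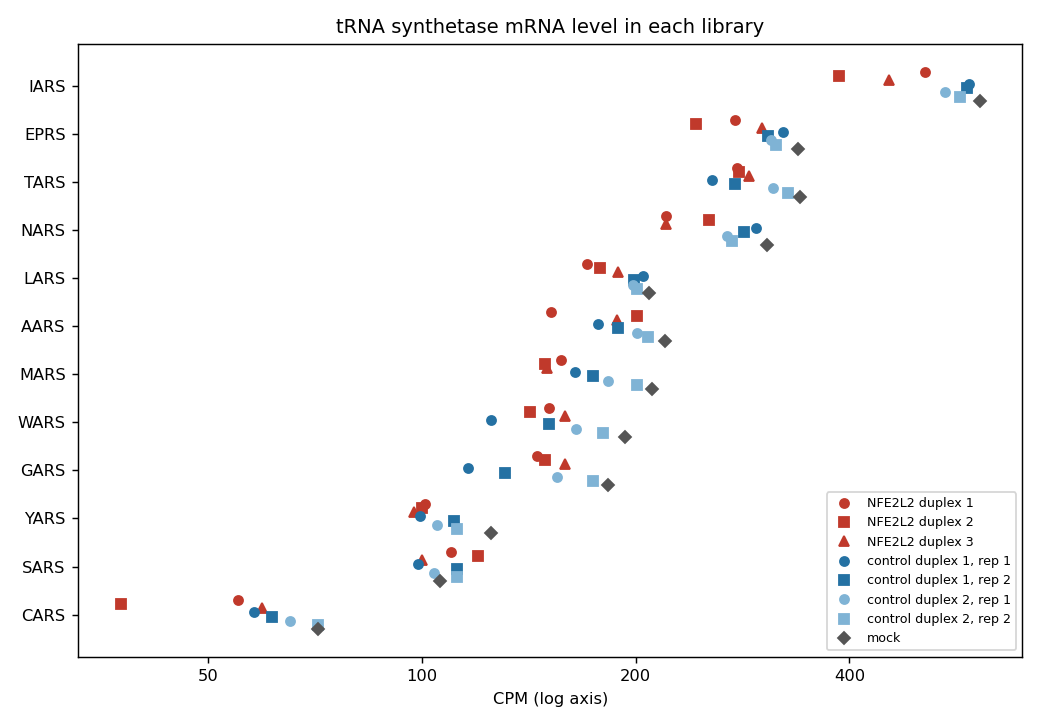
CPM of the 12 synthetase mRNAs (y axis) in each library (x axis, log scale, not divided by transcript length), with 1 mark per library. The red marks of NFE2L2 siRNA lie left of all blue control marks for IARS, EPRS, NARS, LARS and MARS, and the grey mock mark is the rightmost for every synthetase but SARS.

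The mock library, which received no siRNA, stood above all 7 siRNA libraries for 11 of the 12 synthetases, for 7 of 18 ATF4 group genes and for 2 of 12 ER stress genes, together 20 of 42, beside 11.7% of all genes tested. It is 1 library and allows no test. Its summed synthetase level was 2913 CPM, above the 2748 CPM of the highest control library. IARS had 610 CPM in the mock library, MARS 211 CPM and GARS 183 CPM, while SARS, the exception, had 106 CPM and lay among the others. ASNS reached 55.0 CPM, above all siRNA libraries, and CHAC1 3.53 CPM. On the other side, VLDLR had 21.7 CPM in the mock library, below all 7 others, and CTH 16.4 CPM, likewise the lowest. For ATF4 itself the mock library had 266 CPM, inside the control range, and for CEBPB 148 CPM, just above it.

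None of the 12 ER stress genes passed the test, and 2 had an unadjusted p under 0.05, beside 25.0% of all genes. CALR, the lectin chaperone calreticulin, had 766, 833 and 994 CPM with NFE2L2 siRNA and 697, 722, 670 and 734 CPM with control siRNA. It was the ER stress gene whose NFE2L2 siRNA libraries all lay above the controls, with a log2 fold change of 0.29 (95% interval 0.06 to 0.52, adjusted p = 0.114). SDF2L1, a partner of the chaperone BiP, had 18.6, 20.6 and 20.7 CPM against 21.6, 26.4, 22.4 and 26.0 CPM. It was the only ER stress gene with a negative value, −0.27 on the log2 scale (95% interval −0.53 to −0.02, adjusted p = 0.168), and its groups did not overlap. HSPA5, which encodes BiP, the main chaperone of the ER, had 521, 712 and 892 CPM against 544, 617, 719 and 808 CPM. The NFE2L2 duplexes differed among themselves by more than the groups did, and the change was 0.08 (95% interval −0.34 to 0.49). HSP90B1, the ER form of HSP90, had 1760, 1620 and 2010 CPM against 1420, 1540, 1740 and 1880 CPM, a change of 0.13 (SE 0.122).

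For the regulators, the sensor ATF6 had 87.3, 79.3 and 93.7 CPM against 78.4, 77.3, 74.5 and 81.1 CPM, a log2 fold change of 0.16 (SE 0.0888, adjusted p = 0.306). XBP1, whose mRNA is spliced by the sensor IRE1, had 159, 168 and 196 CPM against 189, 154, 137 and 133 CPM, a change of 0.19 (SE 0.135). Counts per gene do not separate spliced from unspliced XBP1. Among degradation factors, HERPUD1 changed by 0.18 (SE 0.215), EDEM1 by 0.09 (SE 0.106) and SEL1L by 0.12 (SE 0.210). DNAJB9, a co-chaperone of BiP, changed by 0.13 (SE 0.118) and CRELD2, an ER protein induced by stress, by 0.20 (SE 0.156). NFE2L2 duplex 3 gave the highest of the 7 values for HSPA5, HSP90B1, HERPUD1, XBP1, ATF6, PDIA4, CALR and CRELD2, and NFE2L2 duplex 1 the lowest for HSPA5.

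The ERSE letters, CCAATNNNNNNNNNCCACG on either strand, occurred in a window of 5 of the 12 ER stress genes (CALR, CRELD2, HSP90B1, HSPA5 and XBP1), beside 0.0916% of all genes in the table, and in none of the other 27 members with a window. The related ERSE-II, ATTGGNCCACG, occurred in HERPUD1 and SDF2L1, beside 0.0696% of all genes. The stretches are shown for HSPA5 (chr9:128003640-128003719, minus strand) and XBP1 (chr22:29196561-29196640, minus strand), which hold the ERSE, and for HERPUD1 (chr16:56965902-56965981, plus strand), which holds the ERSE-II, since these genes differed between the control duplexes in opposite directions. Capitals mark the element:
HSPA5: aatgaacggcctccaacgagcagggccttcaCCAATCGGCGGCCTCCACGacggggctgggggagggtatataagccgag
XBP1: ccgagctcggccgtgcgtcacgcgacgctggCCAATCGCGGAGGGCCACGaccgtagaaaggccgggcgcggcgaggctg
HERPUD1: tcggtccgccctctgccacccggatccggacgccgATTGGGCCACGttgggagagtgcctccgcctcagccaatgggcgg

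Several ER stress genes differed between the control duplexes. In a fit of the 4 control libraries, 2 of the 42 genes passed an adjusted p of 0.01, PDIA4 and SEL1L, both higher with control duplex 2. Of all genes tested 3.07% passed in this fit. At an adjusted p under 0.05 there were 12 of the 42 genes, 6 of them ER stress genes, 3 ATF4 group genes and 3 synthetases, beside 9.53% of all genes. Of the 12, 9 were higher and 3 lower with control duplex 2.

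PDIA4 (ENSG00000155660.6, chromosome 7 from 148700154 to 148725754), a disulfide isomerase of the ER, had 204 and 243 CPM with control duplex 1 and 468 and 536 CPM with control duplex 2. The NFE2L2 siRNA libraries had 508, 493 and 663 CPM and the mock library 573 CPM. Control duplex 1 thus stood below all other libraries, and the duplexes differed by 1.17 on the log2 scale (SE 0.0961, adjusted p = 0.000107). Against control duplex 1 alone the NFE2L2 siRNA change was 1.30 (95% interval 0.89 to 1.71, adjusted p = 0.0146), and against control duplex 2 alone 0.14 (95% interval −0.24 to 0.52, adjusted p = 0.747). Over all 4 controls it was 0.61 (SE 0.306, adjusted p = 0.247), and the interval, from −0.07 to 1.29, was the widest of the 42.

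SEL1L, the adaptor of the ubiquitin ligase that clears misfolded ER proteins, had 138 and 147 CPM with control duplex 1 and 228 and 237 CPM with control duplex 2, a difference of 0.71 (SE 0.0639, adjusted p = 0.000174). With NFE2L2 siRNA it had 160, 227 and 222 CPM and in the mock library 237 CPM, so that NFE2L2 duplex 1 lay near control duplex 1 and the others near control duplex 2. HSPA5, HERPUD1 and HSP90B1 were higher with control duplex 2 by 0.40, 0.53 and 0.30 on the log2 scale (adjusted p = 0.0183, 0.0193 and 0.0473). HERPUD1 had 134, 90.8 and 155 CPM with NFE2L2 siRNA, and 79.9, 104, 122 and 143 CPM in the controls. XBP1 went the other way and was lower with control duplex 2 by 0.35 (adjusted p = 0.0348). The median change of the ER stress genes with NFE2L2 siRNA was 0.27 against control duplex 1 alone, with 1 of 12 values negative, and 0.06 against control duplex 2 alone, with 5 negative.

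The calls between the control duplexes rest on 2 transfections each. With all genes of at least 1 read in the fit, PDIA4 and SEL1L had adjusted p-values of 0.0308 and 0.0243. No member passed 0.01 in that fit, which called few genes in all. With DESeq2 10 members passed, and the count over all genes in that fit is not given here. Leaving out 1 control transfection leaves a duplex with 1 library, so only the size of the difference is read from such fits. The difference of PDIA4 stayed between 1.05 and 1.30 and that of SEL1L between 0.66 and 0.75.

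**Figure D4:**
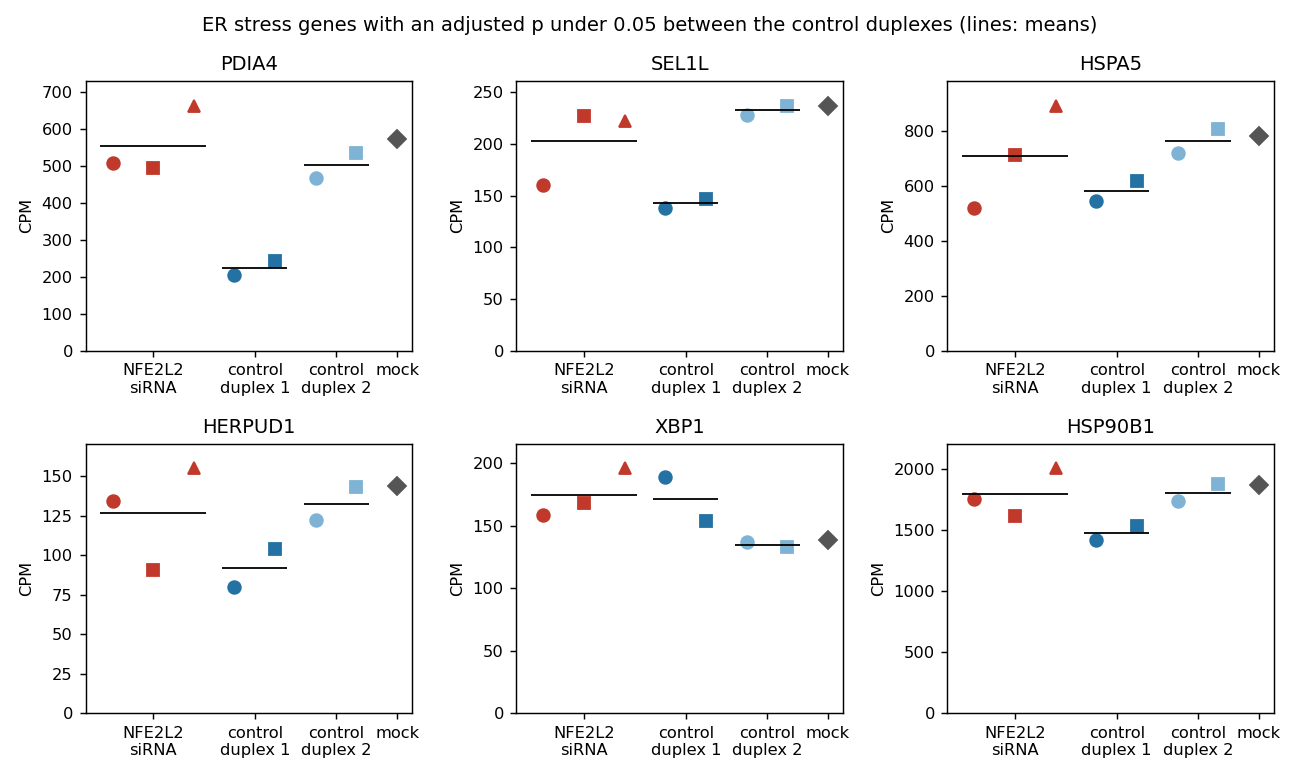
CPM (y axis) of the 6 ER stress genes with an adjusted p under 0.05 between the control duplexes, in the NFE2L2 siRNA, control duplex 1, control duplex 2 and mock libraries (x axis), with 1 mark per library and lines at the means. The marks of control duplex 1 lie below those of control duplex 2 for all but XBP1, where they lie above.

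**Figure D5:**
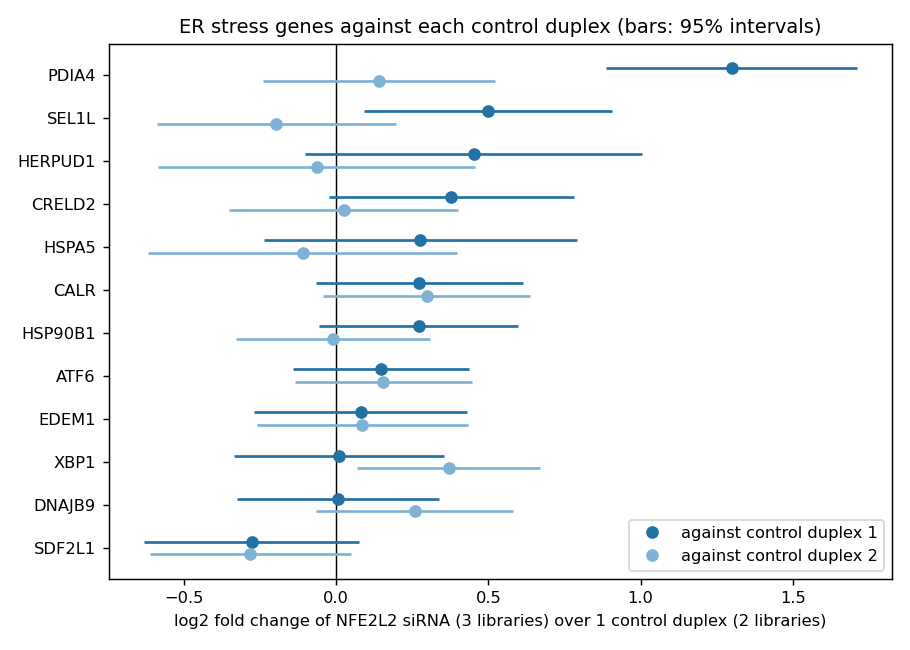
Log2 fold change of the 12 ER stress genes (y axis) between 3 NFE2L2 siRNA libraries and the 2 libraries of 1 control duplex (x axis), dark for control duplex 1 and light for control duplex 2, with 95% intervals as bars. For PDIA4 the value is 1.30 against duplex 1 and 0.14 against duplex 2, and for CALR, ATF6, EDEM1 and SDF2L1 the marks of both duplexes nearly coincide.

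Genes upstream of the response were read from a list of 14 eIF2 kinases, phosphatase subunits and subunits of eIF2 and its exchange factor eIF2B. None of the 14 passed the test, beside 2.76% of all genes. Negative values were found for 12, beside 48.7% of all genes, with a median of −0.11. The 4 kinases EIF2AK1 (HRI), EIF2AK2 (PKR), EIF2AK3 (PERK) and EIF2AK4 (GCN2) had log2 fold changes of 0.28, −0.04, −0.03 and −0.08. The stress-induced phosphatase subunit PPP1R15A (GADD34), itself an ATF4 target, had 47.9, 53.8 and 59.1 CPM against 50, 74.0, 74.9 and 85.5 CPM, a change of −0.41 (SE 0.167, adjusted p = 0.164) with overlapping groups. Interferon-stimulated genes, which answer to double-stranded RNA as PKR does, did not pass either (0 of 6), and IFIT2 and ISG15, chosen after their values were seen, were at 0.63 and 0.65 with adjusted p-values of 0.0426 and 0.0459.

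Of 23 other genes known as ATF4 targets, 2 passed and were decreased. Of all genes tested 2.76% passed, with 1.36% decreased. SLC7A11, the cystine transporter that NRF2 is also known to activate, had 89.4, 32.9 and 59.3 CPM with NFE2L2 siRNA and 498, 437, 584 and 545 CPM with control siRNA. This separated the groups several-fold, with a log2 fold change of −3.09 (SE 0.298, adjusted p = 0.000307, or 0.00925 and 0.0104 against control duplex 1 or 2 alone). GDF15, a stress-induced cytokine of the TGF-beta family, had 44.7, 48.2 and 48 CPM against 63.8, 79.7, 73.5 and 86.3 CPM, a change of −0.69 (SE 0.113, adjusted p = 0.00634). The GDF15 call was lost without NFE2L2 duplex 1 or 3 (adjusted p = 0.0156 and 0.0237), without the second transfection of control duplex 1 (0.0299) and without either transfection of control duplex 2 (0.0207 and 0.0227), as well as against control duplex 1 or 2 alone (0.068 and 0.037), with the duplexes summed (0.0556) and with scaling by library size alone (0.0116). The median of the list was −0.30, and 18 of the 23 values were negative, beside 48.7% of all genes. The NFE2L2 duplexes were uneven, with median log2 ratios to the control mean of −0.395, −0.087 and −0.174 for duplex 1, 2 and 3. MTHFD2, an enzyme of mitochondrial folate metabolism chosen after its values were seen, was at −0.54 with an adjusted p of 0.0239.

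The 11 other cytosolic synthetases and scaffold proteins of the synthetase complex resembled the 12 described above in direction. They had 10 negative values, a median of −0.24, 7 genes wholly below the controls and none past the test. Of all genes tested, 48.7% were negative, 11.4% lay wholly below and 2.76% passed. FARSB, a subunit for phenylalanine, was at −0.32 with an adjusted p of 0.0431. Of 17 mitochondrial synthetases, which have their own genes, 16 were negative with a median of −0.07 and none passed, the lowest adjusted p being 0.0168 for EARS2 at −0.46. FARSB and EARS2 were chosen after their values were seen. Of 23 other ER chaperones, degradation factors and stress sensors, none passed and 12 were positive, with a median of 0.02. ERN1, which encodes IRE1 and was also chosen after its values were seen, was at 0.46 with an adjusted p of 0.0362. In that list were MBTPS1, the protease that cleaves ATF6, DNAJC3, an inhibitor of PKR and PERK, and DERL1, a degradation factor. Like PDIA4, these genes were higher with control duplex 2, by 0.88, 0.62 and 0.40 on the log2 scale (adjusted p = 4.08e-05, 0.000225 and 0.00275). With all genes of at least 1 read in the fit, they missed the threshold (adjusted p = 0.0167, 0.0243 and 0.051). That fit called few genes in all, so the loss is not particular to these genes. With 1 control transfection left out, the differences stayed at 0.824 to 0.939, 0.597 to 0.643 and 0.375 to 0.417. MBTPS1 had 79.4 and 73.3 CPM with control duplex 1, and between 140.0 and 180.0 CPM in the 6 other libraries.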

How the data were processed

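The labels put the libraries into 3 NFE2L2 siRNA, 4 control siRNA and 1 mock. The authors deposited raw counts: reads aligned to hg19 with HISAT 0.1.6 and counted per GENCODE v19 gene by HTSeq-count 0.6.0 on the stated strand. Entries on genes were 60.3% to 65.6%, and the rest was left out. For symbols and positions GENCODE v44, lifted to GRCh37, was used, which holds 55538 of the 60291 identifiers. Synthetase symbols keep their older form (AARS, now AARS1). PECAM1 was not matched.

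The test was the quasi-likelihood F test of edgeR 4.0.16 (R 4.3.3, TMM factors, prior count 0.125) across the 17811 genes with at least 10 reads in 1 library, at a Benjamini-Hochberg adjusted p under 0.01. Dividing the size of a log2 fold change by the square root of F gave its SE. The mock library was not fitted. DESeq2 1.42.0, limma-voom (limma 3.58.1), other filters, scalings and control groups were tried, and the tests were checked on simulated data. The smallest share 1 library could show, 3 counts of its total, was at most 8.44e-06%, for counting error only. Members and lists were chosen with earlier results of these data known. All 42 members are named, and of other lists those past the threshold unless stated.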

Additional observations from a re-analysis of the deposited data

Results flagged for a closer look

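DDIT4, the mTORC1 brake, had 442 CPM in the first transfection of control duplex 1 and 339 to 357 CPM in the other 3 control libraries. The gap to the nearest library was 0.831 of the range of the 4, just above the 95% critical value of Dixon's test for 4 values. The control groups of 42 genes were examined, of which chance alone gives about 1 in 20, or 2.1. The NFE2L2 siRNA libraries had 423, 356 and 385 CPM.

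The mock library, which enters no comparison, was above all 7 siRNA libraries for 20 of the 42 genes, 11 of them synthetases, beside 11.7% of all genes tested. It was above all 4 control libraries for 22 of the 42 genes, beside 22.6% of all genes. With the mock library added to the controls, CEBPB and STC2 passed 0.01, with adjusted p-values of 0.00281 and 0.00872, and 4.33% of all genes did.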

How the results depend on the processing

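The number of genes past the threshold, 491, was 1314 with DESeq2, 1019 with all genes of at least 1 read, 1456 at a threshold of 0.05, 771 with the mock library added to the controls, 117 and 60 against control duplex 1 or 2 alone, 77 with both libraries of a control duplex summed, and from 163 to 915 with each library left out. The 1 member past it, in the ATF4 group, became 2 (CEBPB and STC2) with DESeq2, with at least 1 read, with the mock library and at 0.05, and 0 against either control duplex alone or both summed. It was 0 to 1 with each library left out, the 1 being CEBPB without NFE2L2 duplex 1 and STC2 without NFE2L2 duplex 2.

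No other member passed 0.01 under these alternatives. The medians of the 3 groups kept their sign with each library left out: −0.31 to −0.11 for the ATF4 group, 0.07 to 0.20 for the ER stress genes and −0.17 to −0.12 for the synthetases. Single values near 0 changed sign. Against control duplex 2 alone the log2 fold change was 0.15 for ALDH18A1, −0.12 for CBS, −0.13 for GARS, −0.064 for HERPUD1, −0.011 for HSP90B1, −0.11 for HSPA5, −0.20 for SEL1L and −0.13 for VLDLR. Against control duplex 1 alone it was 0.003 for DDIT3, −0.051 for DDIT4, 0.076 for TARS and 0.12 for WARS. CBS was at −0.019 with limma-voom and −0.066 with the mock library, and GARS at −0.011 with the latter. With each library left out, values ran from −0.20 to 0.007 for AARS, −0.13 to 0.046 for ALDH18A1, −0.18 to 0.33 for ATF5, −0.22 to 0.31 for CBS, −0.043 to 0.13 for CTH, −0.027 to 0.17 for GARS, −0.12 to 0.26 for HSPA5, −0.035 to 0.11 for SARS, −0.006 to 0.26 for SEL1L, −0.11 to 0.004 for TARS, −0.029 to 0.13 for VLDLR and −0.14 to 0.034 for WARS. The cause of these changes was not tested.

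Between the control duplexes, 546 genes passed, 1697 at 0.05, 4 with all genes of at least 1 read and 0 to 2021 with 1 library left out. The 2 members past it were 10 with DESeq2, 12 at 0.05, 0 with at least 1 read and 0 to 18 with 1 library left out. By group this was 3, 5 and 2 with DESeq2 and 3, 6 and 3 at 0.05 for the ATF4 group, the ER stress genes (0 with at least 1 read) and the synthetases, and up to 8, 7 and 3 with 1 library left out. Leaving out 1 library leaves a duplex with 1 transfection, which is taken to vary like the other duplex.

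No paired analysis was possible because a shared number joins no samples: NFE2L2 libraries are numbered by duplex, and controls by duplex and transfection. Depth limits CHAC1 most, with at least 62 reads in each siRNA library.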
